A study of Homo sapiens with 6 samples.

Results

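The genes of the machinery that starts, caps, cuts and supplies actin filaments were followed in confluent human cells given a drug that takes microtubules apart. The 44 genes were chosen by name, and all 44 were found by Ensembl ID among the 38900 IDs measured. They comprise 12 formins, 9 subunits of the Arp2/3 complex, 10 activators of that complex, 3 capping protein subunits, 6 severing proteins and their kinases, and 4 proteins that bind actin monomers. The cells were hTERT RPE1, an established human retinal pigment epithelial line immortalised with telomerase, which was held at full confluency for 5 days, a step meant, per the labels, to bring it to quiescence. One group then received 100 nM combretastatin A4 (CA4), a small molecule that binds tubulin and depolymerises microtubules, and the other 0.1% DMSO, its solvent, both for 6 hours in fresh medium. Each group had 3 polyA RNA sequencing libraries, numbered 1 to 3. The labels do not say whether the replicates came from separate cultures, so p-values measure the spread between these samples, which may be technical.

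New actin filaments are started by formins, which add profilin-bound actin at the growing end of unbranched filaments, and by the Arp2/3 complex, which builds branches once WASP or WAVE proteins switch it on. Capping protein stops growth at that end, cofilin and gelsolin cut filaments, LIM kinases switch cofilin off, and thymosins hold a reserve of monomers. Taking microtubules apart is known to raise actin contractility, partly through formins and LIM kinases. The comparison asks which transcripts of this machinery changed within 6 hours.

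The deposited values are read counts divided by 1 scaling factor per library, called normalized counts here. The libraries held from 19524936 to 22538004 recovered reads, so 1 read was worth 0.935 to 1.12 normalized counts. The lowest of the 44 genes had a mean of 173 normalized counts. Of the markers listed for the epithelial line, KRT8, KRT18, VIM and CDH2 were abundant in all 6 libraries and KRT7 was lower. VIM was the most abundant of them, and CDH2 passed the test as higher in CA4 (log2 fold change 0.31, limma adjusted p = 0.0452). Of 10 markers of retinal pigment epithelium, RLBP1, TYR, TYRP1 and TRPM1 lay near 0, and the list summed to between 1145 and 1852 normalized counts in DMSO and between 655 and 1055 in CA4, with the CA4 libraries all lower. MITF and OTX2 made up most of that sum, with log2 fold changes of -0.98 and -1.11, and OTX2 passed the test (limma adjusted p = 0.0158). The 4 proliferation markers summed to 9093, 4372 and 4132 in DMSO replicates 1, 2 and 3 and to 7475, 4248 and 2258 in CA4. MKI67, which cycling cells express, was at 4849, 2045 and 2246 in DMSO and 4233, 2388 and 1191 in CA4, so transcripts of cycling cells were present in every library despite the labelled quiescence. Markers of blood and endothelium summed to between 947 and 1431 in DMSO and to 1627, 1308 and 3230 in CA4 replicates 1, 2 and 3, from VWF, PECAM1 and CDH5 for the most part, while CD3E and HBB were at 0. The part of these differences in the results below was not tested.

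All 44 genes were abundant enough to be tested. With limma across 13928 genes, and a Benjamini-Hochberg threshold of 0.05, 1 of them rose, the formin DIAPH3, and 1 fell, the formin FMNL2. The share that rose, 2.27%, lay beside 2.97% of all tested genes, and the share that fell, 2.27%, beside 1.97%. Thus 2 of 44 (4.55%) were called, against 4.94% of all tested genes and 6.42% of the 9531 genes at least as abundant as the lowest of the 44. The CA4 libraries lay entirely above the DMSO libraries in 8 genes (18.2%, against 14.3% of all tested genes) and entirely below them in 2 (4.55%, against 13.4%). The median log2 fold change of the 44 was 0.04, beside -0.01 over all tested genes, and the median size of the change regardless of sign was 0.17, beside 0.22. Before adjustment, p was under 0.05 for 10 of the 44 (22.7%, against 23.0% of all tested genes). On the recovered reads edgeR called the same pair (4.62% of all tested genes), and DESeq2 called 5 (11.4%, against 11.6% of all tested genes), adding ACTR3, CFL2 and LIMK2. None of the 44 reached a fitted change of 2-fold, and 3 had a fitted change of at least 1.5-fold, DIAPH3, FMNL2 and LIMK2. The fitted change was upward in 28 genes (63.6%, against 48.9% of all tested genes) and downward in 16. Scaling each library to the same total turned this split to 20 and 24, with a median of -0.06 for the 44 and -0.11 over all tested genes. With the same 75th percentile it was 22 and 22, with medians of 0.01 and -0.04. With quantile normalization it was also 22 and 22, and both medians were -0.01.

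**Figure D1:**
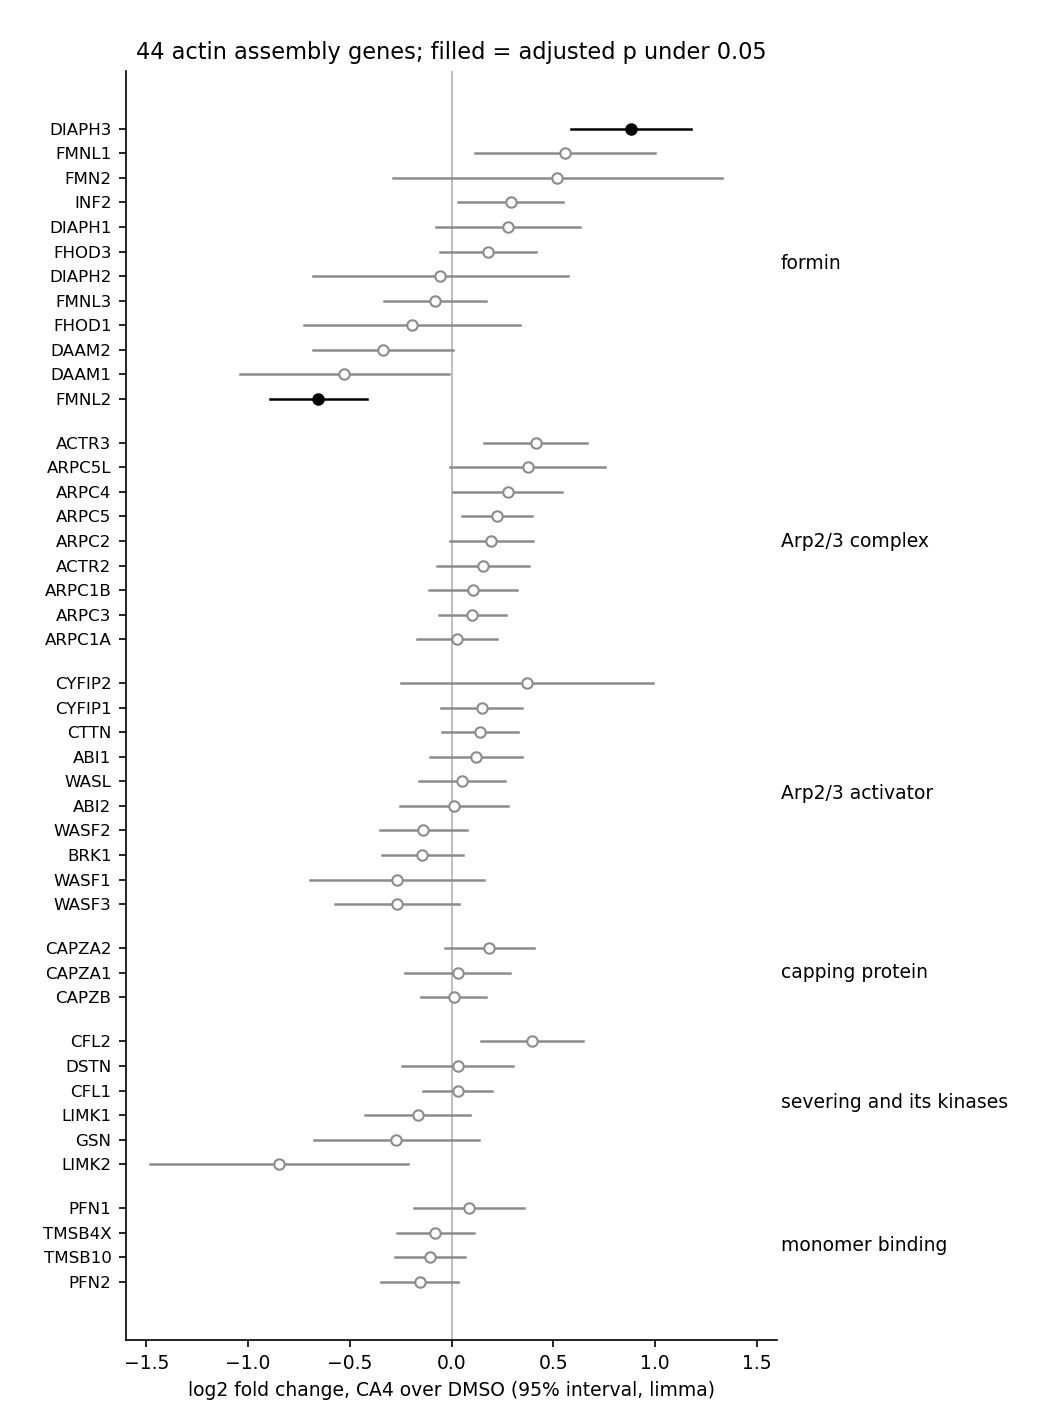
Log2 fold change of each of the 44 genes (CA4 over DMSO, on log2 of the normalized count plus 1) with its 95% interval from limma, grouped by role and ordered within a group. Filled black points passed an adjusted p of 0.05, which DIAPH3 (0.88) and FMNL2 (-0.65) did, while open grey points did not.

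The promoters of the 2 called genes are shown because these were the members that passed the test. The windows run from 250 bases before to 50 after a RefSeq start (GRCh38.p14), printed in the direction of the gene, with any match to the TEAD element GGAATG, the AP-1 element TGANTCA or the CArG box, the element bound by SRF, in capitals. DIAPH3 has 2 starts in the table and FMNL2 has 1. 
DIAPH3, outer start, chr13:60163879-60164178, minus strand: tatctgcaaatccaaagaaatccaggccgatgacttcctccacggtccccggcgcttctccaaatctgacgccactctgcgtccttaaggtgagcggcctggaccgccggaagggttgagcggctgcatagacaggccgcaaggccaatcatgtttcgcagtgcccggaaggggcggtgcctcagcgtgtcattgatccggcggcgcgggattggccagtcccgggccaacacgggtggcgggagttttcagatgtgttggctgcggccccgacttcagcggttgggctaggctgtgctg
DIAPH3, inner start, chr13:60013140-60013439, minus strand: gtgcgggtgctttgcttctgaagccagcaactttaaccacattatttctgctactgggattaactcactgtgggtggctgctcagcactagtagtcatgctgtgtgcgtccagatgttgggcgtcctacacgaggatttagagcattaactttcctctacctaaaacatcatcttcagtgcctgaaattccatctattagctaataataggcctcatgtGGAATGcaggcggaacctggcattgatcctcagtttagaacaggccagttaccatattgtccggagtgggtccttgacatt
FMNL2, chr2:152334924-152335223, plus strand: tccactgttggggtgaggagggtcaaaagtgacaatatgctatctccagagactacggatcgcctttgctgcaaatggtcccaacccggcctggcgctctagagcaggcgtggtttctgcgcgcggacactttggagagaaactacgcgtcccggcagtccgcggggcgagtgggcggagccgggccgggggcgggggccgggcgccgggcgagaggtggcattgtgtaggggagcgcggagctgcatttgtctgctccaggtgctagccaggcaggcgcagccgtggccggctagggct
The only capitals are the GGAATG of the inner DIAPH3 window, which starts 31 bases before that start site, and which of the 2 starts the reads came from was not tested. Of the 44 genes, 40 had an entry, with 62 windows between them. Searched on both strands, GGAATG stood in 4 of the 62 windows (6.45%) and in 14% of all 35116 windows of this length (11.5% of those of tested genes), the 4 being in DIAPH3, CYFIP1, INF2 and PFN1. TGANTCA, which is read the same way on both strands, stood in 3 (4.84%, against 7.71% of all windows and 5.3% of those of tested genes), in ARPC5, CYFIP1 and INF2. The CArG box stood in 0 of the 62 windows and in 1.29% of all windows (1.18% of those of tested genes). The GC box GGGCGG was in 77.4% of the 62 windows, against 45% of all windows and 65% of the windows of tested genes.

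Formins carried both calls. DIAPH3, a diaphanous formin that elongates unbranched filaments, was counted at 1062, 916 and 859 in replicates 1, 2 and 3 of DMSO, an order kept below, and at 1920, 1819 and 1502 in CA4. Every CA4 library lay above every DMSO library. The group means were 946 ± 105 and 1747 ± 218 (SD, n = 3 per group), and the log2 fold change was 0.88 (SE 0.13, limma adjusted p = 0.0157). DIAPH3 lies on chromosome 13 at 59665583 to 60163987 (GRCh38, GENCODE 29). FMNL2, a formin of lamellipodia and filopodia, lies on chromosome 2 at 152335237 to 152649834. It had 1318, 1406 and 1293 normalized counts in DMSO and 910, 892 and 756 in CA4, so that all CA4 libraries were lower. Its means were 1339 ± 59.2 and 853 ± 84.5 (SD, n = 3 per group), and the log2 fold change was -0.65 (SE 0.10, limma adjusted p = 0.0179). Neither call passed when limma was run without its mean trend (adjusted p = 0.0608 for DIAPH3 and 0.0636 for FMNL2). Without DMSO replicate 2, DMSO replicate 3 or CA4 replicate 1 the limma adjusted p of DIAPH3 was 0.0627, 0.0724 and 0.0529 and that of FMNL2 0.0789, 0.0763 and 0.0508, and without CA4 replicate 3 that of FMNL2 was 0.0619.

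**Figure D2:**
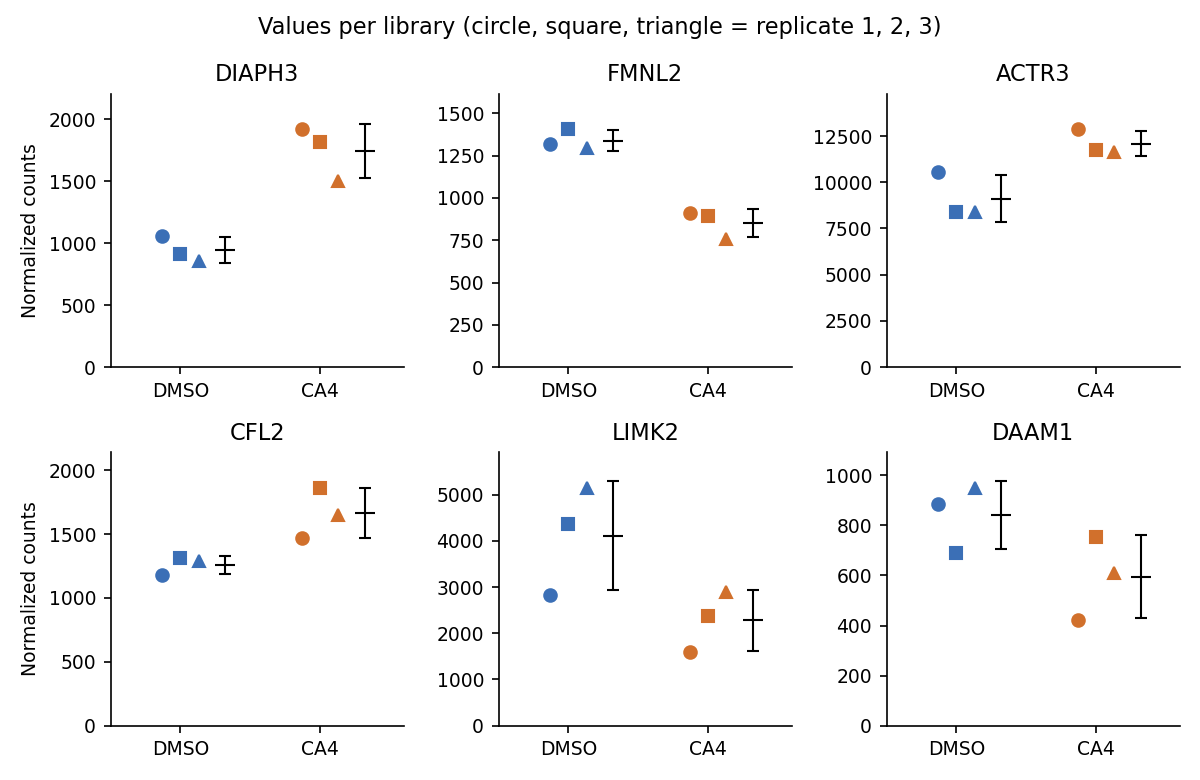
Normalized counts of 6 genes in each library (linear axes from 0, blue DMSO, orange CA4, symbols by replicate number), with the mean and SD of each group in black. The groups are apart in DIAPH3, FMNL2, ACTR3 and CFL2 and overlap in LIMK2 and DAAM1.

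The relatives of DIAPH3 and FMNL2 did not pass the test. DIAPH1, the founding diaphanous formin, had 2918, 2195 and 2043 normalized counts in DMSO and 3214, 2880 and 2516 in CA4. Its groups overlapped because DMSO replicate 1 was high, and its log2 fold change of 0.28 had a 95% interval from -0.08 to 0.63 (limma adjusted p = 0.328). Inside each library the log2 ratio of DIAPH1 to DIAPH3, in which the scaling factor of the library all but cancels, was 1.46, 1.26 and 1.25 in DMSO and 0.74, 0.66 and 0.74 in CA4. It differed by -0.61 between the groups (two-sided exact permutation p = 0.1, which is the lowest possible with 3 against 3 libraries; adjusted p = 0.3 over 15 pairs). DIAPH2 overlapped too, at 291, 252 and 293 in DMSO and 344, 329 and 169 in CA4, and CA4 replicate 3 stood apart on the low side. FMNL3, a relative of FMNL2, was at 2417 ± 194 in DMSO and 2290 ± 256 in CA4 (SD, n = 3 per group), with a 95% interval of the log2 fold change from -0.33 to 0.17. PRPF40B, on the opposite strand, overlaps 19.7% of the exon bases of FMNL3, so the FMNL3 count is uncertain without a stated strand setting. The log2 ratio of FMNL2 to FMNL3 was -0.99, -0.67 and -0.88 in DMSO and -1.48, -1.36 and -1.43 in CA4, a difference of -0.57 (two-sided exact permutation p = 0.1; adjusted p = 0.3 over 15 pairs).

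The other formins did not pass the test. FMNL1 was low, with 267, 270 and 185 normalized counts in DMSO and 398, 358 and 300 in CA4, all CA4 libraries being higher (log2 fold change 0.56, SE 0.19, limma adjusted p = 0.136). INF2, a formin that also severs filaments and acts at the endoplasmic reticulum, had 4049, 3668 and 3377 in DMSO and 5146, 4311 and 4138 in CA4, again without overlap. Its log2 fold change was 0.29 (SE 0.11, limma adjusted p = 0.172). FMN2 had 919, 422 and 367 in DMSO and 1006, 658 and 638 in CA4, with replicate 1 far above the other two in both groups. That spread left its log2 fold change of 0.52 an interval from -0.29 to 1.33. DAAM1, a formin of Wnt planar polarity signalling, had 885, 691 and 951 in DMSO and 422, 754 and 610 in CA4, which overlap. Its relative DAAM2 had 1377, 1412 and 1817 in DMSO and 1087, 1131 and 1426 in CA4, also overlapping, and the log2 fold changes were -0.53 and -0.34 (limma adjusted p = 0.210 and 0.229). AL590999.1, on the opposite strand, overlaps 24.4% of the exon bases of DAAM2, so the DAAM2 count is uncertain without a stated strand setting. The FHOD pair had fitted changes of opposite sign and overlapping groups. FHOD1 had 1341, 1241 and 725 in DMSO and 977, 821 and 1006 in CA4, while FHOD3 had 1094, 1105 and 1163 in DMSO and 1141, 1417 and 1262 in CA4.

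Levels between formins were compared per kilobase of the longest principal transcript in GENCODE 29, an approximation, since the isoforms present in these cells were not measured. On this scale INF2 was the most abundant formin in DMSO, at 792 ± 72.2 normalized counts per kilobase (SD, n = 3). DIAPH1 followed at 412 ± 80.7, and FHOD1, DAAM2, FMNL2, FHOD3, DIAPH3 and FMNL3 lay between 191 and 276, where neighbours in the order did not differ beyond their spread. DAAM1 was at 145 ± 23.3, FMN2 at 88.5 ± 47.3, FMNL1 at 58.7 ± 11.7 and DIAPH2 lowest at 29.9 ± 2.46. In CA4 the level of DIAPH3 was 364 ± 45.4 per kilobase (SD, n = 3), next below that of DIAPH1 at 495 ± 60.2, and that of FMNL2 was 153 ± 15.2. All 12 formins summed to 16475 ± 1461 normalized counts with DMSO alone and to 17709 ± 1379 with CA4 (SD, n = 3 per group), with overlapping groups.

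The 9 genes of the Arp2/3 complex all had upward fitted changes, as did 48.9% of all tested genes, from 0.03 to 0.41 on the log2 scale with a median of 0.20, but none passed the test. In 4 of them, ACTR3, ARPC2, ARPC3 and ARPC5, the CA4 libraries all lay above the DMSO libraries, as in 14.3% of all tested genes. With the same total in each library, the same 75th percentile or quantile normalization, 8 of the 9 remained upward and ARPC1A turned downward, and the median was 0.09, 0.16 and 0.09, beside -0.11, -0.04 and -0.01 over all tested genes. The summed count of the complex was 55188, 46885 and 47348 in DMSO and 59437, 58792 and 55777 in CA4, which does not overlap. As a share of all normalized counts it was 0.271%, 0.229% and 0.227% in DMSO and 0.273%, 0.268% and 0.248% in CA4, which does, as DMSO replicate 1 was high.

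**Figure D3:**
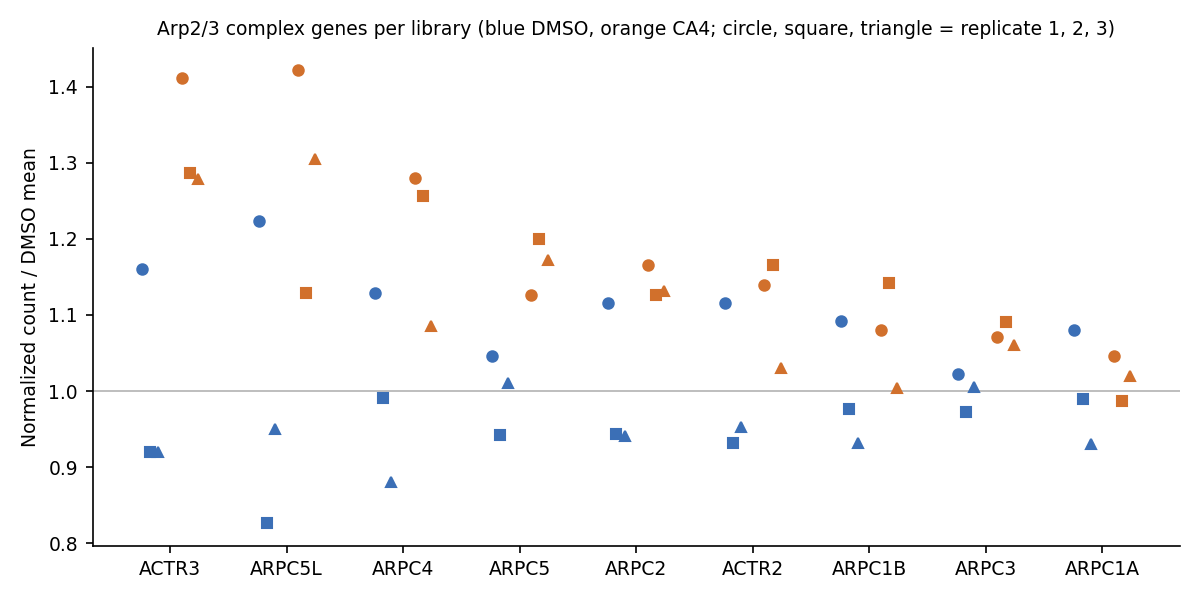
Normalized count of each Arp2/3 complex gene in each library divided by that gene's DMSO mean (blue DMSO, orange CA4, symbols by replicate number), ordered by log2 fold change. DMSO replicate 1, the blue circle, lies above the other DMSO libraries in all 9 genes, and ACTR3 has the largest gap between groups.

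ACTR3, which encodes Arp3, one of the actin-related proteins that form the start of the branch, lies on chromosome 2 at 113889960 to 113962596. It had 10581, 8386 and 8391 normalized counts in DMSO and 12870, 11734 and 11654 in CA4. The groups were apart, with a log2 fold change of 0.41 (SE 0.11), and the limma adjusted p of 0.0732 missed the threshold. Without DMSO replicate 1 the log2 fold change was 0.53 and the limma adjusted p 0.0188, and DESeq2 on the recovered reads gave an adjusted p of 0.0135. Without any 1 of the other 5 libraries the limma adjusted p of ACTR3 was 0.127 to 0.216, edgeR gave 0.0805, and the same total gave 0.144. ACTR2, which encodes its partner Arp2, was at 15228 ± 1526 in DMSO and 16928 ± 1091 in CA4 (SD, n = 3 per group), with overlap. The log2 ratio of ACTR2 to ACTR3 was 0.68, 0.76 and 0.79 in DMSO and 0.43, 0.60 and 0.43 in CA4, a difference of -0.26 with no overlap (two-sided exact permutation p = 0.1; adjusted p = 0.3 over 15 pairs). ARPC5 had 8467, 7628 and 8179 in DMSO and 9115, 9707 and 9483 in CA4, a log2 fold change of 0.22 (limma adjusted p = 0.128). Its alternative form ARPC5L had 784, 530 and 610 in DMSO and 911, 724 and 837 in CA4, which overlap through DMSO replicate 1 (log2 fold change 0.37, limma adjusted p = 0.224). ARPC4 had 3316, 2908 and 2586 in DMSO and 3760, 3689 and 3188 in CA4, overlapping by that same library. In GENCODE 29 a readthrough gene, ARPC4-TTLL3, shares 15% of the exon bases of ARPC4 on the same strand, and its mean was 200 normalized counts in DMSO and 287 in CA4, so the ARPC4 count is uncertain.

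ARPC2 and ARPC3 had small fitted changes. ARPC2 had 8133, 6880 and 6856 in DMSO and 8498, 8213 and 8250 in CA4 (log2 fold change 0.20, limma adjusted p = 0.237). ARPC3 was at 2073 ± 52.6 in DMSO and 2226 ± 30.8 in CA4 (SD, n = 3 per group), a log2 fold change of 0.10. The alternative forms of the ARPC1 subunit stayed near 0, with 95% intervals of the log2 fold change from -0.17 to 0.22 for ARPC1A and from -0.11 to 0.32 for ARPC1B. Both intervals lie inside 1.5-fold in either direction under the authors' scaling. Exons of ARPC1A and ARPC1B are shared in GENCODE 29 with the readthrough gene AC004922.1 (58.4% and 32.4% of their exon bases), which had about 99 normalized counts in DMSO and 98 in CA4, so the counts of both are uncertain.

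None of the 10 activators of the Arp2/3 complex passed the test, and their log2 fold changes ran from -0.27 to 0.37 with a median of 0.03. The WAVE proteins, which relay Rac signals to the complex, all had downward fitted changes, also with quantile normalization. Among all tested genes 48.9% were fitted upward under the authors' scaling, and the rest downward. WASF3 alone of the 10 had groups without overlap, the CA4 libraries being lower as in 13.4% of all tested genes, at 271, 289 and 306 normalized counts in DMSO and 218, 240 and 261 in CA4 (log2 fold change -0.27, SE 0.13, limma adjusted p = 0.270). The antisense gene AL159978.1 lies opposite 38.3% of its exon sequence, so the WASF3 count is uncertain without a stated strand setting. WASF2, the most abundant WAVE gene per kilobase, was at 4144 ± 269 in DMSO and 3770 ± 324 in CA4, and WASF1 at 420 ± 37.4 and 354 ± 77.7 (SD, n = 3 per group), both with overlap. The WAVE complex subunits CYFIP1, ABI1, ABI2 and BRK1 had log2 fold changes of 0.15, 0.12, 0.01 and -0.14, and the groups of each overlapped. CYFIP2 was low, at 117, 119 and 229 in DMSO and 194, 187 and 189 in CA4, and its DMSO spread came from replicate 3. The antisense neighbour RAPH1 covers 38% of the exon bases of ABI2, and its mean was 2630 in DMSO and 4920 in CA4, so the ABI2 count is uncertain for the same reason. WASL, which encodes N-WASP, was at 892 ± 54.2 in DMSO and 922 ± 34.1 in CA4 (SD, n = 3 per group). Cortactin, the product of CTTN, holds branches together, and its gene had a log2 fold change of 0.14 (95% interval -0.04 to 0.33).

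None of the 3 capping protein genes passed the test, and all overlapped. CAPZB, the beta subunit, had 6157, 5990 and 5890 normalized counts in DMSO and 5879, 6269 and 6018 in CA4, and the interval of its log2 fold change ran from -0.15 to 0.17. CAPZA1 had a log2 fold change of 0.03 (95% interval -0.23 to 0.29) and CAPZA2 one of 0.19 (95% interval -0.03 to 0.41). With quantile normalization the fitted log2 fold changes of CAPZB and CAPZA1 were -0.08 and -0.04. With the same total they were -0.09 and -0.07, where the median of all tested genes was -0.11.

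None of the 6 severing proteins and kinases passed the test, and their median log2 fold change was -0.07. CFL1, the main cofilin of non-muscle cells, had 20673, 19684 and 18879 normalized counts in DMSO and 19897, 20764 and 19780 in CA4, with overlapping groups and a 95% interval of the log2 fold change from -0.14 to 0.20. CFL2, the muscle-type cofilin, lies on chromosome 14 at 34706769 to 34714823 and had 1177, 1309 and 1290 in DMSO and 1472, 1863 and 1652 in CA4. Its CA4 libraries were all higher, with a log2 fold change of 0.40 (SE 0.11), and the limma adjusted p of 0.0806 missed the threshold. DESeq2 on the recovered reads gave CFL2 an adjusted p of 0.022, while edgeR gave 0.0787 and limma without any 1 library 0.0968 to 0.197. The log2 ratio of CFL1 to CFL2 was 4.13, 3.91 and 3.87 in DMSO and 3.76, 3.48 and 3.58 in CA4, a difference of -0.37 without overlap (two-sided exact permutation p = 0.1; adjusted p = 0.3 over 15 pairs). DSTN, which encodes the related severing protein destrin, was at 11877 ± 1152 and 12166 ± 1527 (SD, n = 3 per group). GSN, which encodes the calcium-dependent severing protein gelsolin, had 4670, 5269 and 6677 in DMSO and 3795, 4405 and 5591 in CA4. Those groups overlap, and the log2 fold change was -0.27 (SE 0.17, limma adjusted p = 0.403).

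LIMK2 had the largest downward fitted change among the 44 genes. It encodes a kinase that phosphorylates and inactivates cofilin, and lies on chromosome 22 at 31212239 to 31280080. It had 2823, 4354 and 5150 normalized counts in DMSO and 1588, 2365 and 2892 in CA4. The groups overlap because DMSO replicate 1 lay just below CA4 replicate 3. The log2 fold change was -0.85 with a standard error of 0.27 and an interval from -1.48 to -0.21, and the limma adjusted p of 0.118 missed the threshold. Without DMSO replicate 1 it was -1.10 (limma adjusted p = 0.0445), and DESeq2 on the recovered reads gave an adjusted p of 0.0109. Without any 1 of the other 5 libraries the log2 fold change of LIMK2 was -1.04 to -0.61 and the limma adjusted p 0.136 to 0.306, and edgeR gave 0.121. LIMK1 was at 3947 ± 356 in DMSO and 3527 ± 424 in CA4 (SD, n = 3 per group), a log2 fold change of -0.17. The log2 ratio of LIMK1 to LIMK2 was 0.35, -0.15 and -0.26 in DMSO and 1.04, 0.48 and 0.47 in CA4, a difference of 0.68 with no overlap (two-sided exact permutation p = 0.1; adjusted p = 0.3 over 15 pairs).

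**Figure D4:**
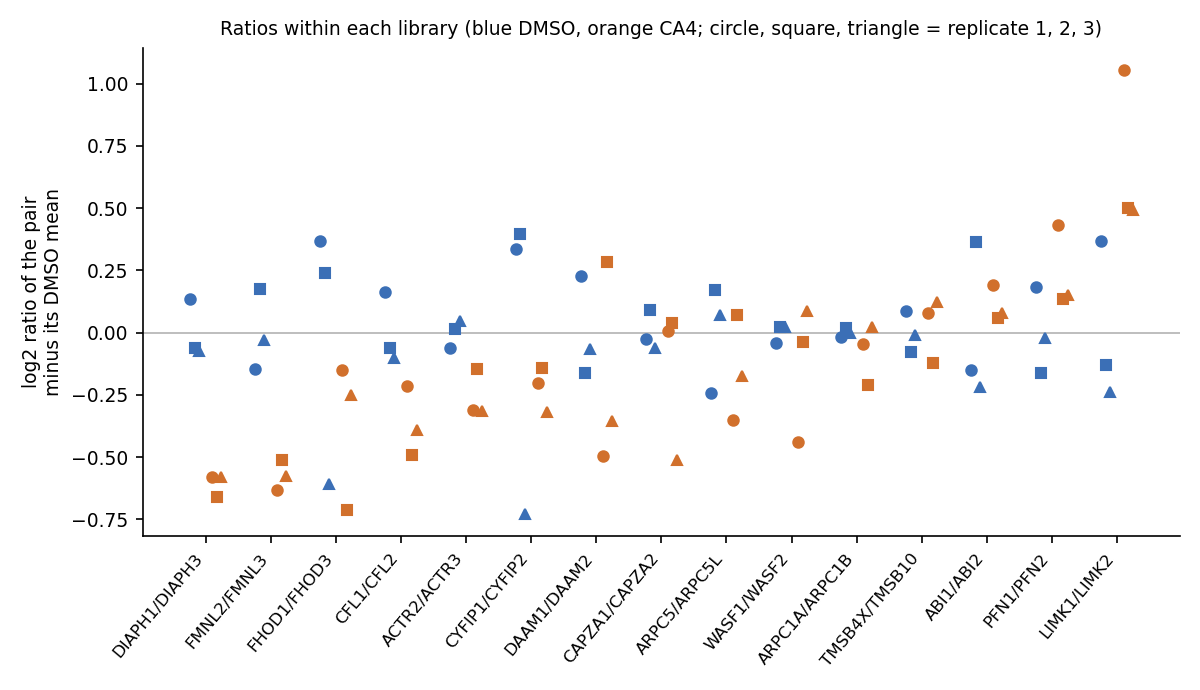
Log2 ratio of 2 related genes inside each library, minus the DMSO mean of that ratio, for 15 pairs ordered by the difference between groups (blue DMSO, orange CA4, symbols by replicate number). The groups do not overlap in 5 pairs, DIAPH1/DIAPH3, FMNL2/FMNL3, ACTR2/ACTR3, CFL1/CFL2 and LIMK1/LIMK2.

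The ratios did not overlap between groups in 5 of the 15 pairs, and none passed adjustment, which this design does not allow. Among all tested genes, taken singly, 27.7% had groups that did not overlap. In the other 10 pairs the groups overlapped, among them the pairs of capping protein alpha subunits, ARPC1, ARPC5, CYFIP, ABI and thymosin genes.

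None of the 4 genes of monomer-binding proteins passed the test. PFN1, the main profilin, which feeds actin to formins, had 19846, 15916 and 16027 normalized counts in DMSO and 20135, 18089 and 16569 in CA4. Its relative PFN2 had 2954, 3008 and 2749 in DMSO and 2518, 2779 and 2519 in CA4. Both overlapped, with fitted changes of opposite sign (log2 fold change 0.08 for PFN1 and -0.16 for PFN2), and that of PFN1 turned downward with quantile normalization (-0.09). The thymosins TMSB4X and TMSB10 had log2 fold changes of -0.08 (95% interval -0.27 to 0.11) and -0.11 (95% interval -0.28 to 0.06). Their sum was 42314, 39129 and 39026 in DMSO and 37403, 37699 and 37976 in CA4, with all CA4 libraries lower and a ratio of the means of 0.939. As a share of all normalized counts the sum was also lower in each CA4 library, at 0.195% ± 0.0108 in DMSO and 0.171% ± 0.0017 in CA4 (SD, n = 3 per group).

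The wider set, called actin regulators here although it includes the actin genes ACTB and ACTG1, held 74 further genes. All had an ID, and 65 were tested. In limma's test 7 of the 65 (10.8%, beside 2.97% of all tested genes) rose and 1 (1.54%, beside 1.97%) fell, with a median log2 fold change of -0.003, beside -0.01 over all tested genes. This list was chosen with earlier results of these data known, so its share of rises is not independent of them. ENAH and VASP belong to the Ena/VASP family, which elongates filaments at their tips. EVL, the other family member tested, did not pass, with overlapping groups and a log2 fold change of -0.27 (limma adjusted p = 0.271). ENAH had 6886, 4790 and 6013 normalized counts in DMSO and 11435, 12093 and 12252 in CA4. Its log2 fold change was 1.03 (SE 0.13, limma adjusted p = 0.0109). VASP had 4278, 3268 and 3470 in DMSO and 6230, 5649 and 5748 in CA4. Its log2 fold change was 0.69 (SE 0.11, limma adjusted p = 0.0199). The other 4 named by rule were LMOD1, a nucleator first known from smooth muscle, CORO1C, a coronin, SSH1, a phosphatase that reactivates cofilin, and the cytoplasmic actin gene ACTG1. Their log2 fold changes were 0.84, 0.65, 0.49 and 0.43 (limma adjusted p = 0.0192, 0.0336, 0.0208 and 0.0365). WDR1, whose product helps cofilin take filaments apart, was the other gene that rose (log2 fold change 0.47, limma adjusted p = 0.0476) and was named after its values were seen. SVIL, which encodes the membrane-linked actin binder supervillin, fell from 4394, 5288 and 4758 in DMSO to 1309, 1805 and 1376 in CA4. Its log2 fold change was -1.70 (SE 0.14, limma adjusted p = 0.00222). Every CA4 library lay on 1 side of every DMSO library in these 8 genes. ENAH, LMOD1, VASP and SSH1 rose under each of the 4 scalings. CORO1C, ACTG1 and WDR1 missed the threshold with the same total and with quantile normalization, WDR1 also with the same 75th percentile and in edgeR, and both ACTG1 and WDR1 with no filter on low values, where 5 of the regulators rose. Without limma's mean trend none of the 7 rises passed (0 of 7, ENAH having the lowest adjusted p at 0.0565). Without DMSO replicate 2, DMSO replicate 3, CA4 replicate 1, CA4 replicate 2 or CA4 replicate 3, only 1, 0, 2, 2 and 1 of the regulators rose, and without DMSO replicate 1 there were 10. The fall of SVIL passed in all 17 alternative analyses.

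**Figure D5:**
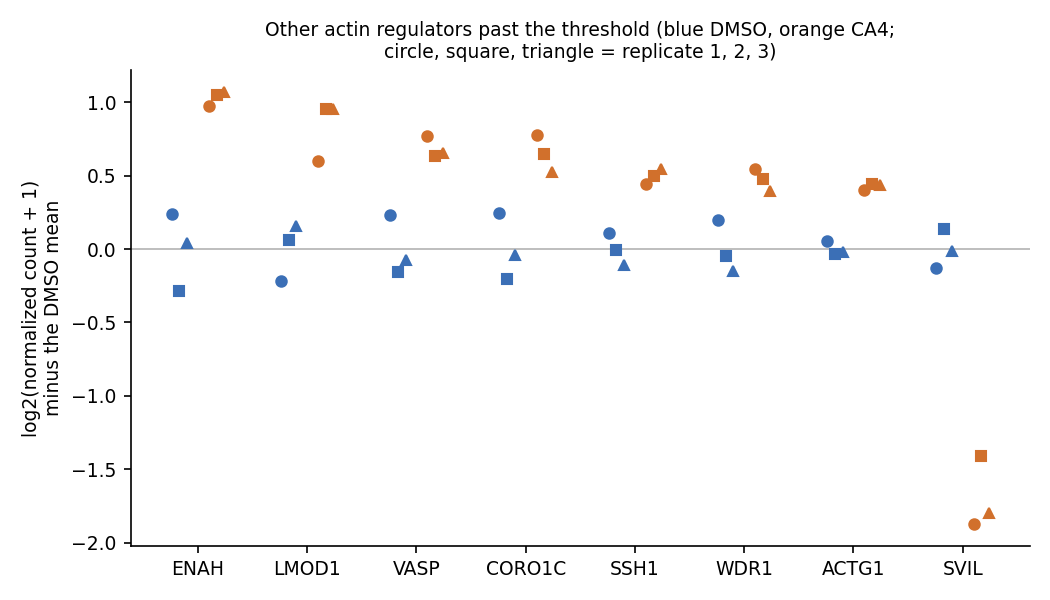
Log2 of the normalized count plus 1 in each library minus the DMSO mean, for the 8 genes of the wider set past the threshold (blue DMSO, orange CA4, symbols by replicate number). They are actin regulators apart from ACTG1, an actin gene. ENAH is highest, with a log2 fold change of 1.03, and SVIL is the only one below 0, at -1.70.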

How the data were processed

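Per the submitters' processing notes, Trim Galore 0.6.6, FastQC 0.12.1, STAR 2.7.9a, Salmon 1.8.0, DESeq2 1.44.0 and the build GRCh38 were used, with no role given. The authors deposited a signal per gene, a count divided by 1 scaling factor per library. Dividing a column by its smallest step gave whole numbers for 100% of values (tolerance 0.01), and these are the recovered reads, possibly rounded estimates. The annotation release and strand setting are not given in the sources used here. Genes on the opposite strand overlap other members too, among them CAPZA1 (15.1% of exon bases), FMNL1 (14.6%), CFL1 (12.9%) and CYFIP1 (12.8%). The counts of these members are therefore uncertain as well. Symbols came from the supplied gene table, exon overlaps from GENCODE 29 and promoters from RefSeq (GRCh38.p14).

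The test took genes averaging 10 or more normalized counts and ran on log2(normalized count + 1) with limma 3.58.1 (R 4.3.3), treatment as the only term, a mean trend, two-sided p-values and Benjamini-Hochberg adjustment over 13928 genes. A fold change on this scale understates the change of low genes. Errors are SD over 3 libraries or limma's standard errors, and intervals are 95% from limma. edgeR 4.0.16 and DESeq2 1.42.0 on the recovered reads were alternatives and called 643 and 1613 genes, against 688. Scripts were tested on simulated data.

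The members, lists, pairs and tests were chosen with earlier results of these data known. Named by rule were all members and, of the wider list, up to 6 called genes in each direction by adjusted p. Replicate numbers were not treated as pairs.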

Additional observations from a re-analysis of the deposited data

How the results depend on the processing

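DIAPH3 kept its direction in all 17 alternatives (log2 fold change 0.78 to 0.99), as did FMNL2 (-0.76 to -0.57), and 34 of the 44 genes in all. Counts are given as higher and lower. Against 1 and 1 members, there were 0 and 0 without a mean trend, 3 and 2 with DESeq2, and 0 to 2 and 0 to 2 without 1 library. Against 7 and 1 further regulators, there were 4 higher under quantile normalization, 4 and 3 with the same total, 0 higher without a mean trend, 2 lower at a mean of at least 50, 11 and 4 with DESeq2, and 0 to 10 and 1 to 3 without 1 library. Against 413 and 275 of all tested genes, there were 523 lower with the same total, 51 and 52 without a mean trend, 907 and 706 with DESeq2, and 50 to 605 and 31 to 389 without 1 library. Each fit without 1 library had fewer samples, and the highest of their counts over all tested genes, 605 and 389, came without DMSO replicate 1. The causes of these differences were not tested.

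With the replicate number as a block, 9 and 4 members passed (13 of 44, 29.5%, against 17.2% of all tested genes), 12 and 6 further regulators and 1260 and 1137 of all tested genes. The members gained were ACTR3, ARPC4, ARPC5L, CFL2, DIAPH1, FMN2, FMNL1 and INF2, higher, and DAAM2, GSN and LIMK2, lower, the last with a limma adjusted p of 0.000996. The numbers were not taken as pairs, since deviations from the group means correlated at 0.202, 0.159 and 0.0588 for numbers 1, 2 and 3. Of the 6 libraries, 5 correlated best with the library of their own number and CA4 replicate 3 did not.

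The sign of the other 10 members turned in at least 1 alternative. With quantile normalization the log2 fold changes were 0.0105 (DIAPH2), -0.0336 (ARPC1A), -0.0471 (ABI2), -0.042 (CAPZA1), -0.0771 (CAPZB), -0.176 (CFL1), -0.0609 (DSTN) and -0.0921 (PFN1). With the same total they were -0.0742 (ARPC1A), -0.0518 (WASL), -0.0906 (ABI2), -0.0716 (CAPZA1), -0.0914 (CAPZB), -0.0717 (CFL1), -0.0702 (DSTN) and -0.0169 (PFN1), and with the same 75th percentile -0.00546 (ARPC1A), -0.0219 (ABI2), -0.0029 (CAPZA1), -0.0227 (CAPZB), -0.00297 (CFL1) and -0.00147 (DSTN). DIAPH2 was at 0.0118 with edgeR and 0.0102 with DESeq2. Without 1 library the log2 fold change ran from -0.236 to 0.273 for DIAPH2, -0.160 to 0.00185 for FMNL3, -0.0231 to 0.0838 for ARPC1A, -0.00164 to 0.0797 for WASL, -0.0906 to 0.0838 for ABI2, -0.0651 to 0.134 for CAPZA1, -0.0153 to 0.0310 for CAPZB, -0.00218 to 0.0633 for CFL1 and -0.0335 to 0.140 for DSTN. The same range of the difference in log2 ratio was -0.239 to 0.0251 for WASF1/WASF2, -0.254 to 0.0221 for CAPZA1/CAPZA2 and -0.0214 to 0.102 for TMSB4X/TMSB10. The number of libraries, 3 in each group, limits the precision, and all 44 genes passed every filter on low values.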
